A study of Homo sapiens with 6 samples.

Results

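The enzymes described here carry out thiol-based and peroxide-removing chemistry in cells. They are the glutathione S-transferases, glutathione peroxidases, peroxiredoxins, superoxide dismutases, glutaredoxins, thioredoxins, thioredoxin reductases and catalase. Members were chosen by gene symbol, with earlier results of these data known, and 51 of the 22989 genes in the count table matched. The study asked which genes depend on LINC00115, a long non-coding RNA, in breast cancer stem-like cells (BCSC) that resist paclitaxel (PTX). By the study's account, bulk RNA of PTX-resistant MDA-MB-231 BCSC was sequenced, with 3 libraries labelled LINC00115 knockdown (KD) and 3 labelled WT. MDA-MB-231 is an established line of human breast cancer cells of the triple-negative kind, PTX is a microtubule-binding chemotherapy drug, and BCSC are the cells sorted for high aldehyde dehydrogenase activity. In the KD libraries LINC00115 was targeted with a hairpin RNA, for which the study's text names sh115-2. The KD libraries themselves are named sh115-1, sh115-2 and sh115-3, and the labels do not say whether these are replicates of 1 hairpin. The labels call the controls WT, while the study's text describes a control hairpin. Nothing in the labels says that the 3 libraries of a group came from separate cultures, so p-values measure the spread between these libraries, which may be technical.

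The libraries held between 36979221 and 38799331 counts, and the members took between 0.467% and 0.484% of them. The symbols are those of mouse genes, with 4648 Gm and 1129 Rik symbols and only 16 of 22989 equal to a human symbol as written. Such symbols belong to a mouse annotation, while the genome builds named for the data, hg19 and hg38, are human. Whether the counted reads came from the labelled human line or from mouse cells was not tested. A human origin therefore rests on the labels and the study's text, and every value here holds for the genes as named in the table. Of the members, 7 (Gstm6, Gstm7, Gstp2, Gstp3, Gstt3, Gstt4 and Txn1) have no current human symbol of the same letters. Among these, Gstt3 had between 315 and 537 counts in every library. The table holds 0 genes named LINC00115, so the knockdown could not be checked in these counts and every direction rests on the labels. Among 10 markers of the labelled cells, Vim, Cd44, Axl, Krt8 and Krt18 were well counted in every library. Egfr had between 201 and 397 counts, far fewer than these. Epcam, Krt19 and the aldehyde dehydrogenase gene Aldh1a3 had between 0 and 7 counts in every library, and Aldh1a1 had between 8 and 52.

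Glutathione is the main small thiol of the cell. Glutathione peroxidases use it to reduce peroxides, glutathione S-transferases join it to reactive compounds, and glutaredoxins use it to reduce protein disulfides. Thioredoxin is a small protein that does related work with electrons from NADPH, passed on by thioredoxin reductase, and it recharges the peroxiredoxins. Superoxide dismutases turn superoxide into hydrogen peroxide, which peroxidases and catalase then remove. In tumour cells these enzymes are known for their part in resistance to drugs and oxidative stress.

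Of the 51 members, 42 passed the low-count filter. Their counts entered edgeR's quasi-likelihood test together with all other genes, and its Benjamini-Hochberg adjusted p is given as the edgeR adjusted p, with SE for the standard error of the log2 fold change. A mean ± SD is over the 3 libraries of a group. A member is said to have risen or fallen where that p, adjusted over all 13497 genes tested, was under 0.05, and it is called where its fold change was also over 2. In the KD libraries 18 tested members rose and 18 fell, and 6 did not pass the test. Over all genes tested, 36.7% rose and 36.7% fell, 73.4% together. At both thresholds 5 members were called higher (Gpx3, Gsta1, Gsta2, Gsta4 and Sod3), beside 10.2% of all genes tested. Only Gpx8 and Gstm7 were called lower among the tested members, beside 9.98% of all genes tested. Together the 7 called members were 16.7% of those tested, against a background of 20.2%, so the members were called about as often as other genes. The median log2 fold change was 0.08 for the tested members and −0.01 for all genes tested, with members between −2.07 and 5.38. Most of the members are well counted, and 25 had a mean count of at least 1000. Each of these passed the adjusted p, beside 82.9% of all genes with such counts, and 2 of the 25 were called, beside 8.94%. The groups did not overlap in normalized level for 38 of the 42, beside 75.6% of all genes tested. In bulk RNA, a change in the share of cells that express a gene and a change of RNA per cell cannot be told apart.

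**Figure D1:**
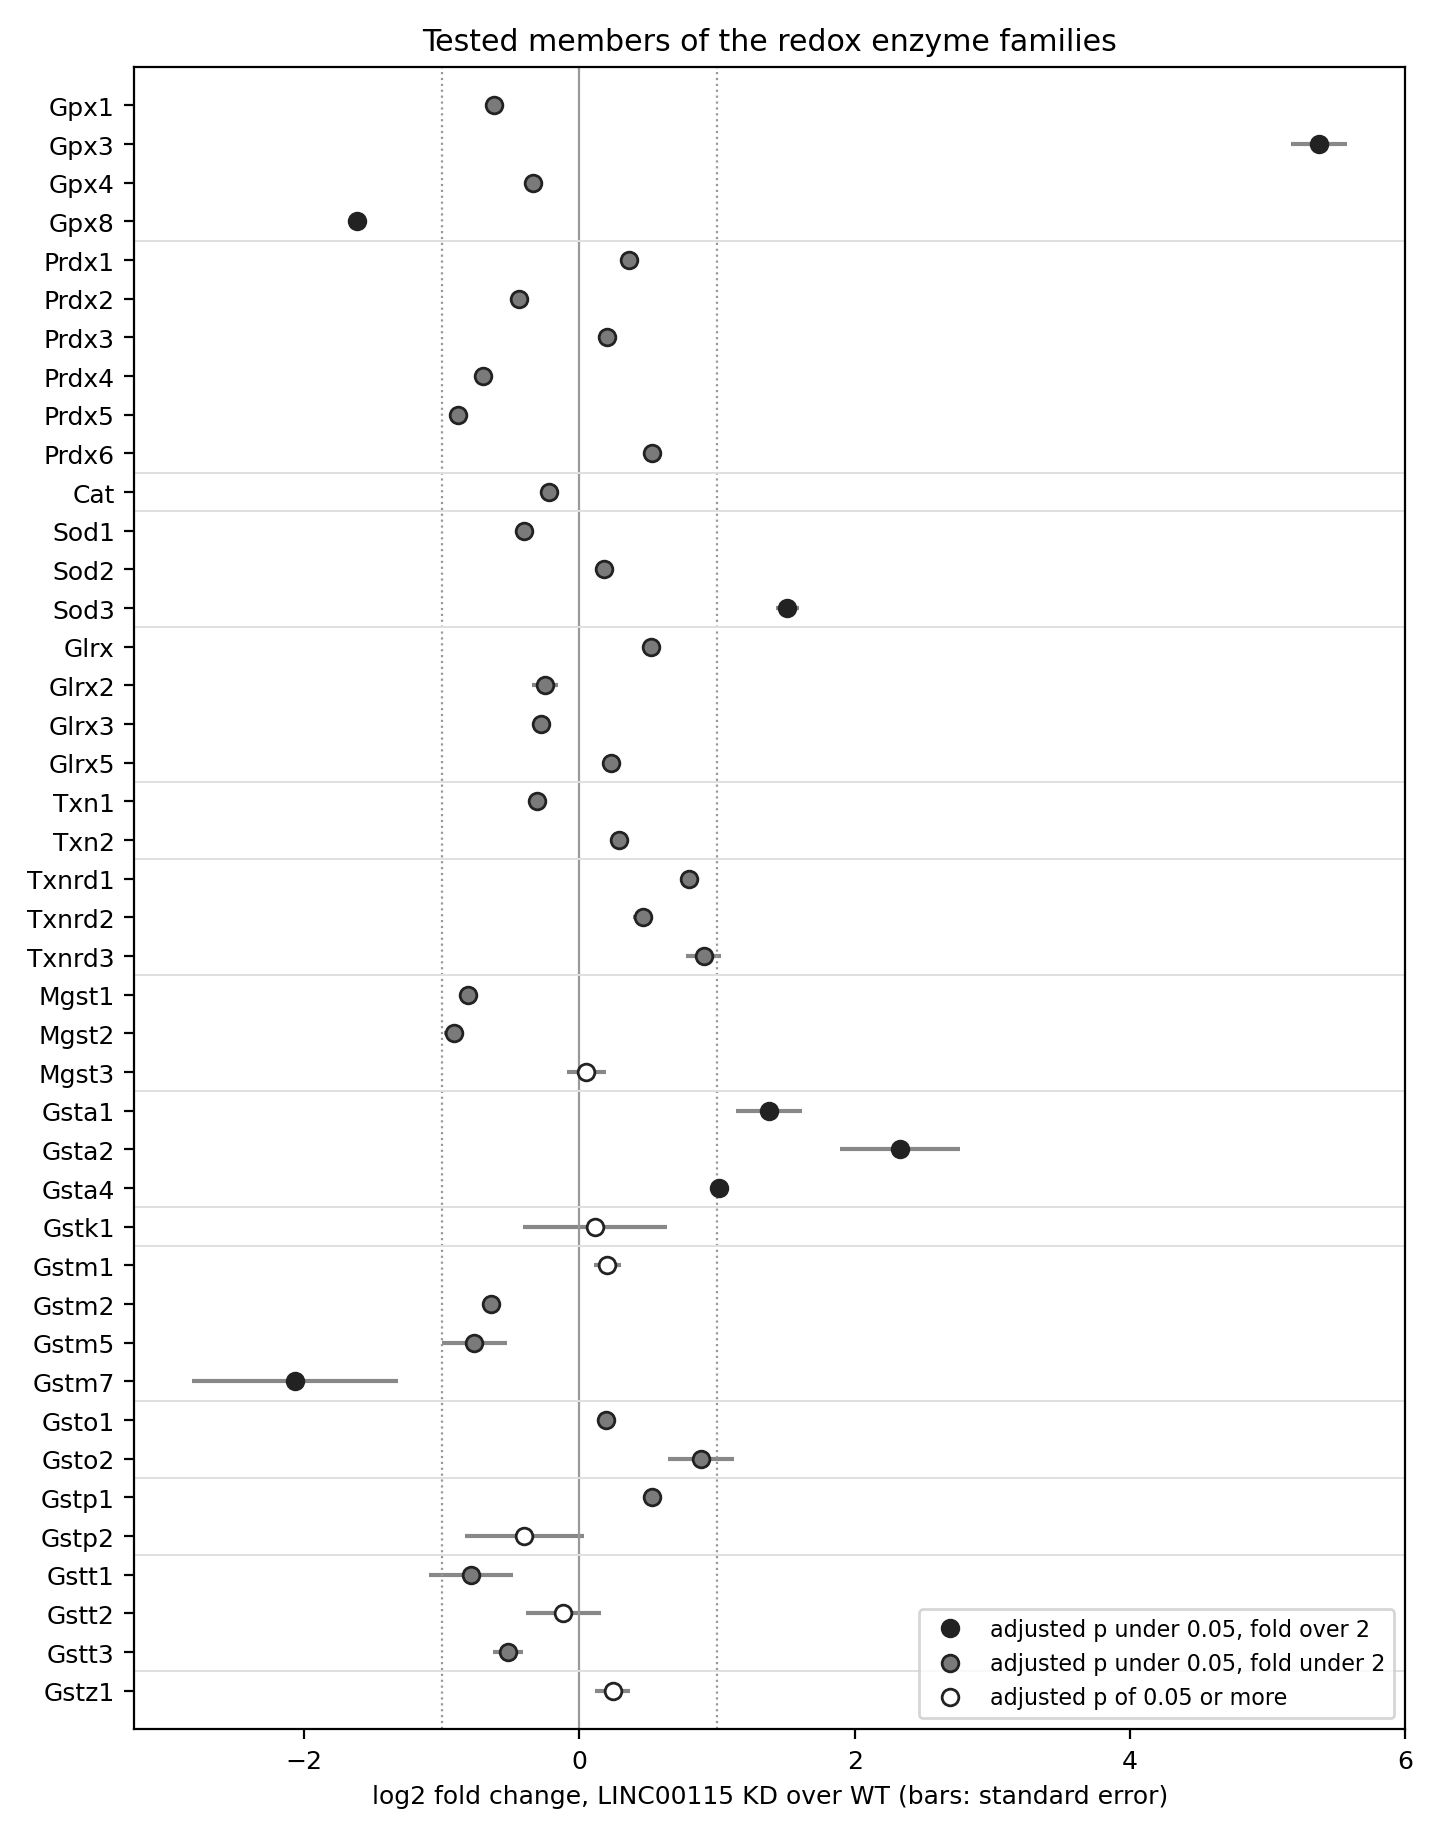
Log2 fold change of the 42 tested members, KD over WT, by enzyme family, with standard errors from edgeR as bars (3 libraries per group). Black points passed the adjusted p and a fold of 2, grey points the adjusted p alone and white points neither, and points lie on both sides of 0 in the Gpx, Prdx, Sod, Txn and Glrx families while the 3 Txnrd points lie above it.

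The glutathione peroxidases split, with the intracellular members lower and the secreted one higher in the KD libraries. Gpx1, the abundant cytosolic peroxidase, stood at 722, 731 and 723 normalized CPM (counts scaled to a common library size by TMM) in the WT libraries and at 474, 455 and 485 in the KD libraries. The groups did not overlap, and all KD libraries lay well under the lowest WT library. Gpx1 fell by 0.62 on the log2 scale (SE 0.03, edgeR adjusted p = 1.29e-18). Gpx4, which reduces lipid peroxides in membranes and is known as a guard against ferroptosis, fell from 283 ± 3.70 to 224 ± 3.85 normalized CPM, a log2 fold change of −0.34.

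Gpx8, a peroxidase of the endoplasmic reticulum membrane, had the steepest fall among well-counted members. Its level was 130, 136 and 133 normalized CPM in the WT libraries and 40.3, 45.8 and 43.9 in the KD libraries. Every KD library was thus far under every WT library, and Gpx8 was 3.07-fold lower (log2 fold change −1.62, SE 0.05, edgeR adjusted p = 4.30e-25). With each library left out in turn, its log2 fold change ranged from −1.65 to −1.56. Gpx7, the related peroxidase of the same compartment, had at most 2 counts in any library. Prdx4, the peroxiredoxin of the endoplasmic reticulum, also fell, so that both tested peroxidases of this compartment were lower. This grouping was made after the values were seen.

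**Figure D2:**
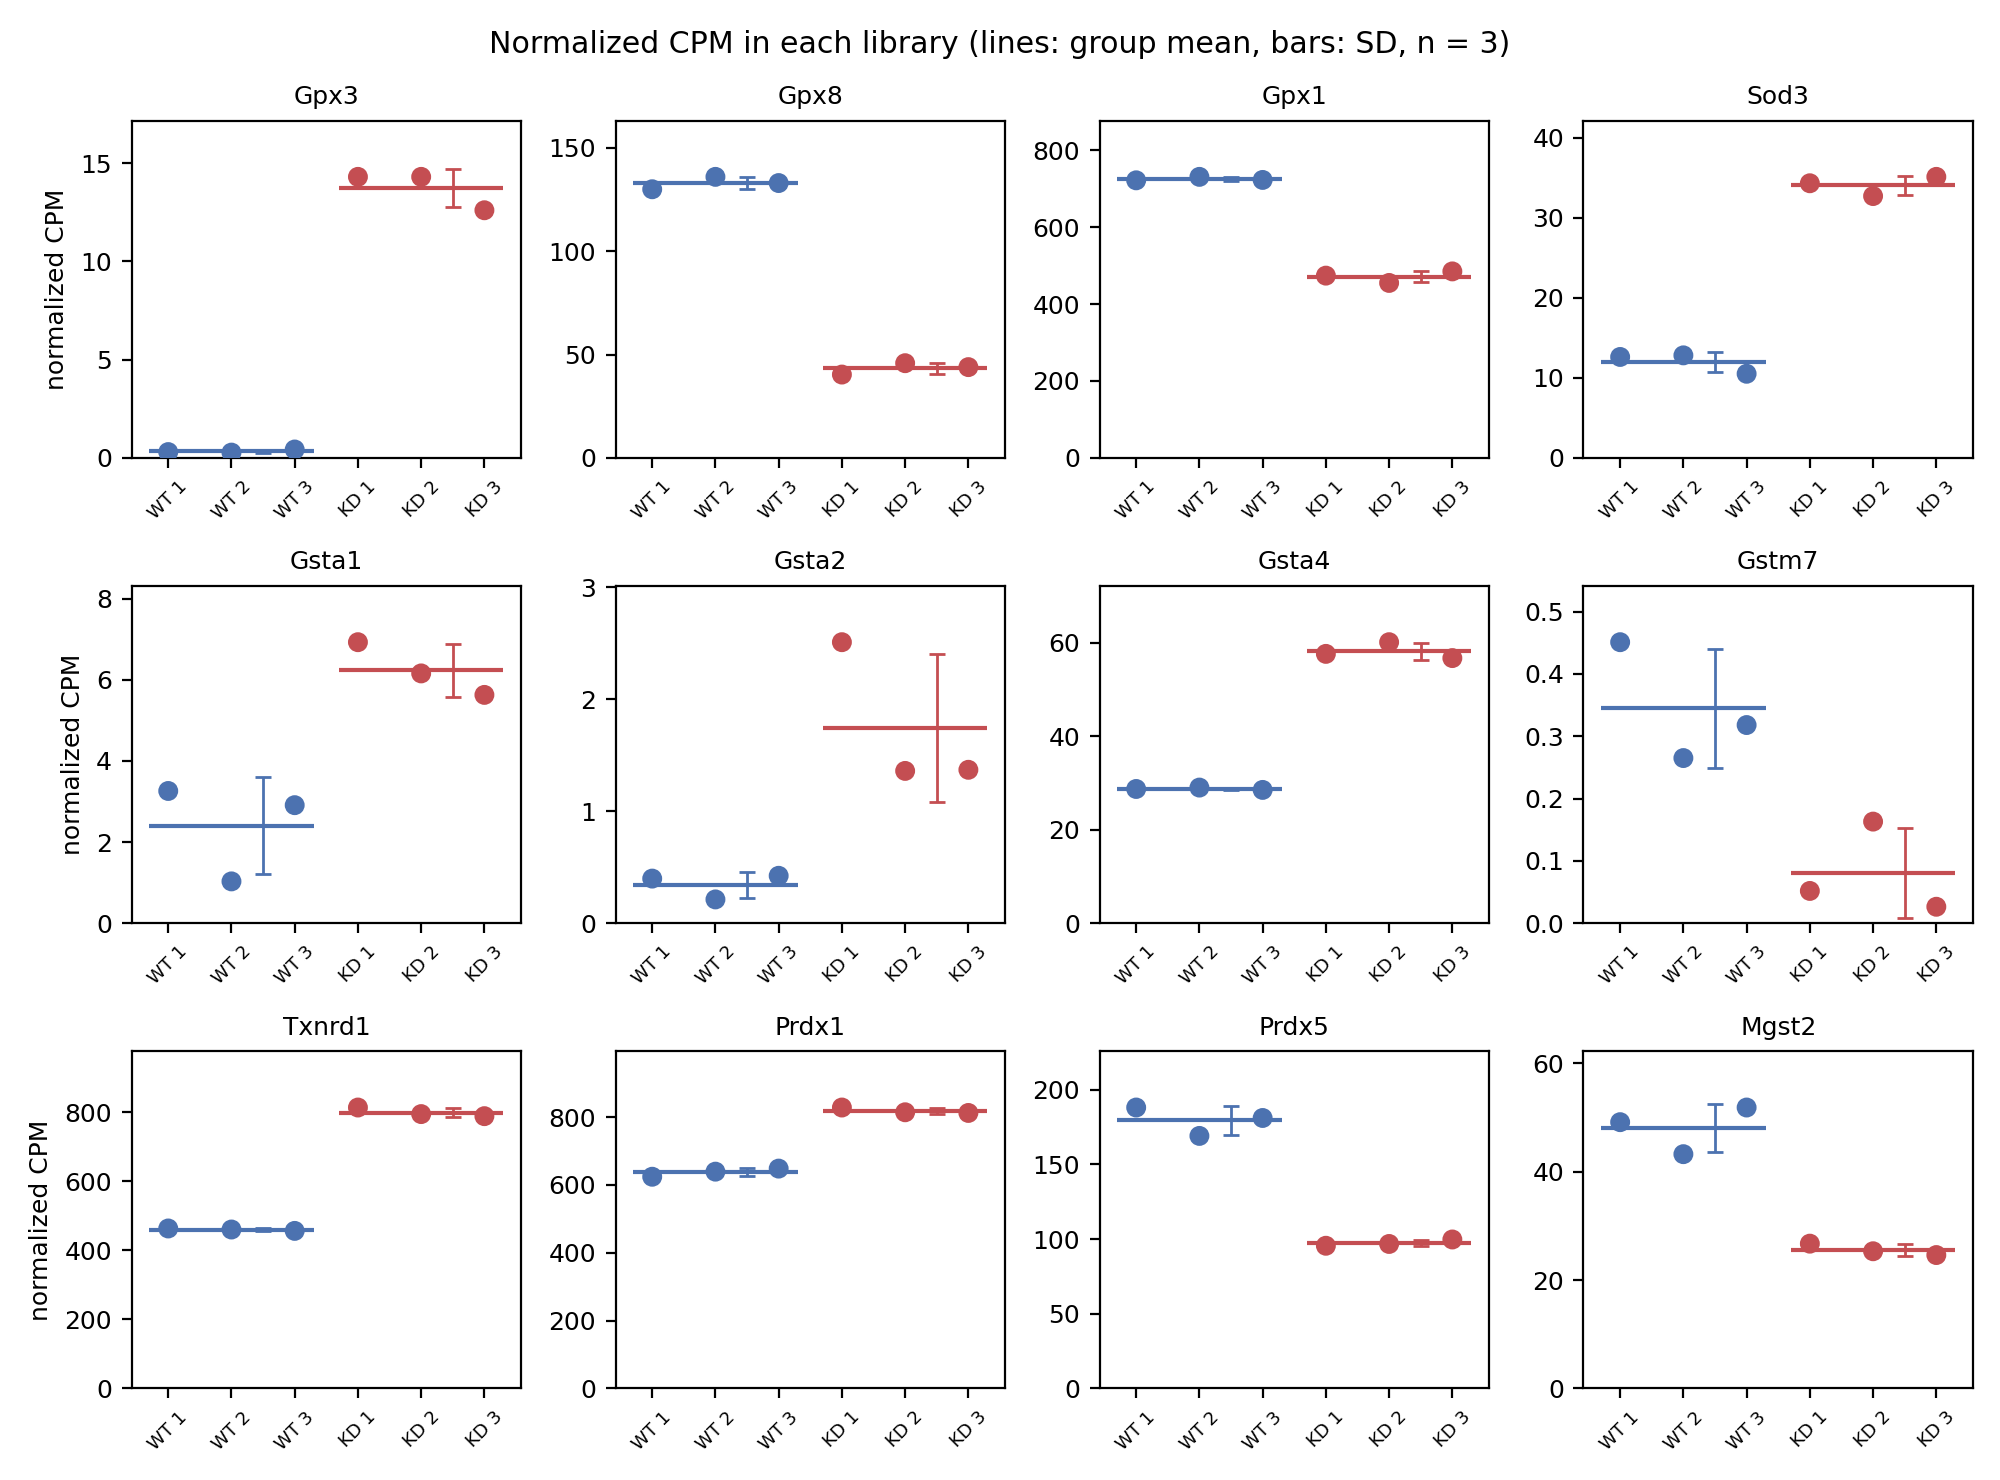
Normalized CPM in each of the 6 libraries (WT 1 to 3 in blue, KD 1 to 3 in red) for 12 members, each axis starting at 0, with group means as lines and SD as bars. Groups did not overlap for any of the 12, from Gstm7 at no more than 0.451 normalized CPM to Prdx1 at no less than 624.

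Gpx3, the secreted plasma glutathione peroxidase, rose the most of all tested members. It had 11, 10 and 16 counts in the WT libraries and 552, 524 and 479 in the KD libraries. Every KD library was thus far above every WT library. The level went from 0.327 ± 0.0848 to 13.7 ± 0.959 normalized CPM, 41.6-fold higher (log2 fold change 5.38, SE 0.20, edgeR adjusted p = 2.47e-22). Sod3, the extracellular superoxide dismutase, stood at 12.6, 12.8 and 10.5 normalized CPM in the WT libraries and at 34.3, 32.7 and 35.1 in the KD libraries. Both secreted enzymes, likewise grouped after the values were seen, were therefore higher in every KD library. Sod3 was 2.85-fold higher (log2 fold change 1.51, SE 0.08, edgeR adjusted p = 1.23e-17).

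Gpx3 is known to be made in the kidney and Sod3 in the lung, and markers of both organs differed between the groups. All 13 lung markers were over 3 counts in every KD library and higher there than in every WT library. Their summed level was 1.73 to 2.22 normalized CPM in the WT libraries and 76.2 to 87.4 in the KD libraries, and 7 of the 13, among them Scgb1a1 and Sftpc, had 0 counts in every WT library. Of 13 kidney markers, 9 were higher in the same way and 1, Cubn, was lower, with sums of 16.8 to 19.6 and 42.0 to 45.9 normalized CPM. Kap, Umod, Aqp2, Slc22a6 and Cdh16 had 0 counts in every WT library. Nphs1, a gene of the kidney filter, had 0 or 1 counts in every library. The part of these cell types in the rise of Gpx3 and Sod3 was not tested. Leukocyte markers were higher in every KD library for 4 of the 11 genes found of 12 (sums of 72.1 to 86.0 and 144 to 160 normalized CPM). Most of these sums lay in S100a8 (means of 33.0 and 95.2) and Cd68 (42.8 and 47.2, with overlapping groups). Red blood cell markers were higher for 2 of 6 found of 9 (sums of 0 to 0.159 and 1.66 to 2.35). Liver markers were higher for 1 of 9 (sums of 0 to 0.344 and 1.06 to 1.37). The 75.6% of all genes tested without overlap in normalized level is no direct background for these marker counts. That share takes either direction, while each marker count takes 1 direction, needs over 3 counts and includes genes that were not tested. At both thresholds 12 lung, 6 kidney, 4 leukocyte, 2 red blood cell and 1 liver markers were called higher and 0 lower. Of all genes tested, 10.2% were called higher. Of 9 fibroblast and endothelial markers, 1 (Cdh5) was higher and 2 were lower (sums of 174 to 193 and 134 to 136 normalized CPM). The WT sums were mostly Pdgfra, which fell from 177 to 74.5 on average. Cdh5 rose from 0.221 to 57.8, while the endothelial genes Pecam1, Kdr and Tek had at most 19 counts in any library.

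**Figure D3:**
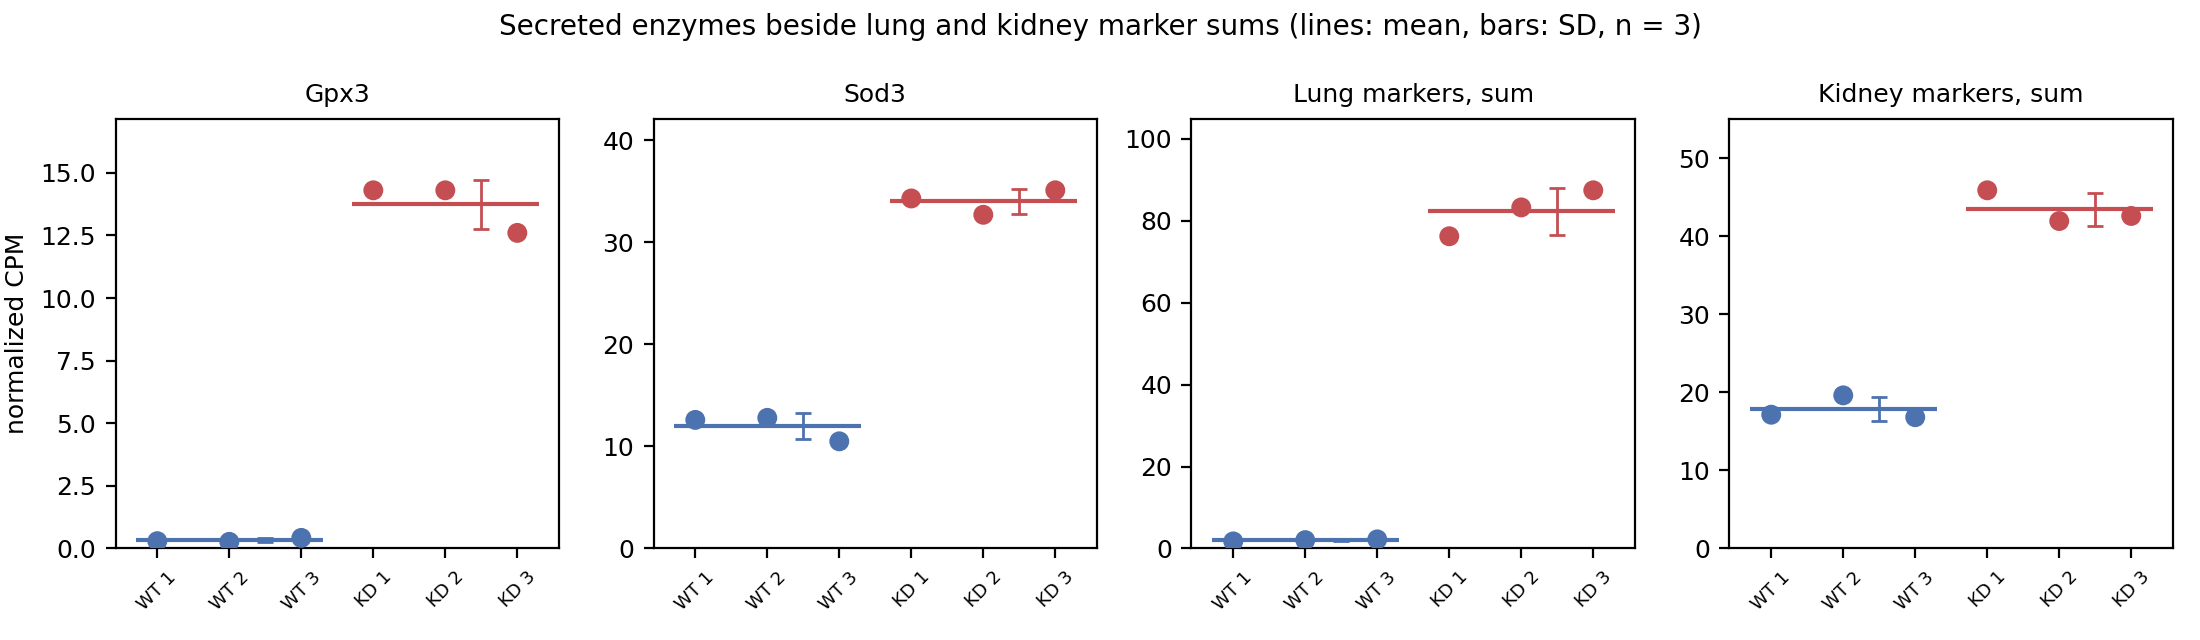
Normalized CPM of Gpx3 and Sod3 and the summed normalized CPM of 13 lung and 13 kidney markers in each library, with group means as lines and SD as bars (n = 3). All 4 panels are higher in the 3 KD libraries than in the 3 WT libraries, and the lung markers sum to at most 2.22 in WT.

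The peroxiredoxins, which remove most of the hydrogen peroxide in cells, all changed, 3 upward and 3 downward, and none passed a fold of 2. Prdx1, the main cytosolic peroxiredoxin, stood at 624, 639 and 648 normalized CPM in the WT libraries and at 828, 814 and 812 in the KD libraries. The groups did not overlap, and Prdx1 was 28.4% higher (log2 fold change 0.36, SE 0.03, edgeR adjusted p = 8.76e-13). Prdx6, which works with glutathione rather than thioredoxin, rose from 170 ± 4.26 to 245 ± 2.87 normalized CPM. Prdx3, the peroxiredoxin of mitochondria, rose by a log2 fold change of 0.20.

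Prdx5, found in mitochondria, peroxisomes and the cytosol, showed the largest difference of the peroxiredoxins, at 188, 169 and 181 normalized CPM in the WT libraries and 95.5, 96.7 and 99.7 in the KD libraries. Every KD library lay under every WT library, a log2 fold change of −0.88 (SE 0.04, edgeR adjusted p = 2.08e-19). Prdx4 fell from 135 ± 1.77 to 83.3 ± 2.16 normalized CPM (log2 fold change −0.70). Prdx2, a cytosolic enzyme abundant in red blood cells, fell from 177 ± 6.49 to 130 ± 3.01 (log2 fold change −0.44). Of the reads counted on the 6 peroxiredoxins, Prdx1 took 46.7% ± 0.441 in the WT libraries and 56.5% ± 0.317 in the KD libraries.

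Among the superoxide dismutases, 1 fell and 2 rose. Sod1, the copper-zinc enzyme of the cytosol, stood at 140, 145 and 155 normalized CPM in the WT libraries and at 110, 109 and 115 in the KD libraries, without overlap. It fell by 0.40 on the log2 scale (SE 0.04, edgeR adjusted p = 3.31e-10). Sod2, the manganese enzyme of mitochondria, rose from 76.5 ± 3.06 to 86.5 ± 3.71 normalized CPM (log2 fold change 0.18). With Sod3 included, the summed level of the 3 was 235 ± 9.61 in the WT libraries and 232 ± 4.83 in the KD libraries. Cat, the peroxisomal catalase, had 236, 222 and 211 normalized CPM in the WT libraries and 194, 189 and 191 in the KD libraries, and was 14.1% lower in a comparison without overlap (log2 fold change −0.22, SE 0.04, edgeR adjusted p = 5.44e-06).

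All 3 thioredoxin reductases rose. These enzymes carry electrons from NADPH to thioredoxin. Txnrd1, the cytosolic form, stood at 463, 460 and 456 normalized CPM in the WT libraries and at 813, 794 and 788 in the KD libraries. Replicates lay close together and the groups far apart, with Txnrd1 1.74-fold higher (log2 fold change 0.80, SE 0.03, edgeR adjusted p = 3.71e-22). Txnrd2, the mitochondrial form, rose by a log2 fold change of 0.46, from 32.0 ± 3.99 to 44.1 ± 2.58 normalized CPM. Txnrd3, a form known from the testis, rose by 0.90 from 5.76 ± 0.522 to 10.8 ± 0.662. None of the 3 passed a fold of 2.

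The thioredoxins themselves went in opposite directions. Txn1, the cytosolic thioredoxin, had 396, 411 and 422 normalized CPM in the WT libraries and 337, 317 and 339 in the KD libraries, so that every KD library was lower. It fell by 0.31 on the log2 scale (SE 0.03, edgeR adjusted p = 1.15e-09). Txn2, the mitochondrial thioredoxin, rose from 141 ± 6.48 to 173 ± 5.03 normalized CPM (log2 fold change 0.29). Glrx, the cytosolic glutaredoxin, had 94.6, 94.7 and 97.3 normalized CPM in the WT libraries and 136, 136 and 139 in the KD libraries. All KD libraries were higher, and Glrx rose by a log2 fold change of 0.52 (SE 0.04, edgeR adjusted p = 1.34e-13). Glrx5, which serves iron-sulfur cluster assembly in mitochondria, rose (log2 fold change 0.23), and Glrx3, a cytosolic iron-sulfur glutaredoxin, fell (−0.28). Glrx2, the mitochondrial glutaredoxin, fell by 0.25 on the log2 scale, but not past the adjusted p without WT replicate 2 (0.143) or without KD replicate 1 (0.0990, edgeR's quasi-likelihood test in both), nor with DESeq2's Wald test (0.0533).

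Seen by cofactor and compartment, groupings made after the values were seen, 7 of the members are enzymes with selenocysteine in the active site (Gpx1 to Gpx4 and Txnrd1 to Txnrd3). Of the 6 that were tested, Gpx1 and Gpx4 fell, and Gpx3 and the 3 thioredoxin reductases rose. Of 6 enzymes known mainly from mitochondria, Sod2, Prdx3, Txn2, Txnrd2 and Glrx5 rose, and Glrx2 fell. Members found in mitochondria and elsewhere, among them Prdx5, Gstk1, Gpx1, Gpx4 and Mgst1, are not among these 6. Of those named, Prdx5, Gpx1, Gpx4 and Mgst1 fell and Gstk1 did not pass the test. The balance of rises and falls thus depends on which members are counted as mitochondrial.

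To give the sequence context of genes that rose, RefSeq promoters (250 bases before to 50 after each start, GRCh38.p14, human) were searched on both strands for TGACNNNGC, the core of the antioxidant response element bound by NRF2, the main regulator of antioxidant genes. By symbol apart from case, 37 of the 51 members matched a human promoter entry. Of their 51 promoters 9 held the motif (17.6%), beside 13.3% of all 35116 promoters in the table. Motif matches stood in promoters of members that rose (TXNRD1, GSTP1, GSTO1, GSTA4) and of members that fell (GSTM5, MGST1, the latter after its start), as well as of GSTM1 and the untested GPX2. Matches are shown for TXNRD1 at each of 2 listed starts, for GSTP1, and for GCLM, a glutathione synthesis gene described further on, with 25 bases on each side and the motif, or GCNNNGTCA where it lies on the other strand, in capitals.
TXNRD1, chr12:104215655-104215713, plus strand, motif 99 bases before the start: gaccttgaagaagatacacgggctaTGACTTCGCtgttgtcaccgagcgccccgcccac
TXNRD1, chr12:104286905-104286963, plus strand, motif 102 bases before another start: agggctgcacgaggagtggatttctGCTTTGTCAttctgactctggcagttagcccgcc
GSTP1, chr11:67583721-67583779, plus strand, motif 66 bases before the start: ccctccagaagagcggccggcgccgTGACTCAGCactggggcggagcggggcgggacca
GCLM, chr1:93909431-93909489, minus strand, motif 34 bases before the start: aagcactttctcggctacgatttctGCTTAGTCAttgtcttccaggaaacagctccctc
These are human reference sequences, while the counted genes carry mouse-style symbols, and a match describes letters only. A further TXNRD1 match, at position −8 from the start of the first sequence shown, is not printed. In the alpha, mu and theta classes the same number need not mark the same gene in mouse and human.

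Among the alpha class glutathione S-transferases, all 3 tested members were called higher. Gsta4, which conjugates the lipid peroxidation product 4-hydroxynonenal, stood at 28.7, 29.0 and 28.5 normalized CPM in the WT libraries and at 57.6, 60.1 and 56.7 in the KD libraries. The groups were far apart, at 2.02-fold (log2 fold change 1.02, SE 0.06, edgeR adjusted p = 3.92e-17). This log2 fold change is near the threshold of a fold of 2, and it was 0.97 with upper quartile scaling and 0.996 with library totals only. Gsta1 had 123, 39 and 110 counts in the WT libraries and 268, 226 and 214 in the KD libraries. The groups did not overlap, and Gsta1 was 2.60-fold higher (log2 fold change 1.38, SE 0.24, edgeR adjusted p = 4.66e-06). WT replicate 2 was low, and without it the log2 fold change was 1.02, also near the threshold. Gsta2 had 15, 8 and 16 counts in the WT libraries and 97, 50 and 52 in the KD libraries. It was 5.04-fold higher on these low counts (log2 fold change 2.33, SE 0.44, edgeR adjusted p = 1.46e-05). Gsta3 had 0 counts in every WT library and 13, 5 and 24 in the KD libraries, and was not tested. Its mean normalized CPM in the KD libraries was 4.63 times the level that 3 counts give in the WT libraries on average. Gsta1 and Gsta2 are near-identical paralogs whose reads can be split in counting, and Gsta3 is a more distant one. The summed counts of the 3 gave a log2 fold change of 1.60 (adjusted p = 6.47e-08, edgeR's quasi-likelihood test, an alternative chosen after the data were seen). Alpha class transferases are known to be abundant in kidney and liver, and the kidney markers given above moved with them, a part that was not tested.

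Of the mu class, 3 of the 4 tested members fell. Gstm2 stood at 120, 116 and 120 normalized CPM in the WT libraries and at 76.3, 75.5 and 76.4 in the KD libraries. Every KD library was lower, and Gstm2 fell by 0.64 on the log2 scale (SE 0.04, edgeR adjusted p = 2.32e-15). Gstm5 fell from 3.96 ± 0.671 to 2.33 ± 0.736 normalized CPM (log2 fold change −0.76), and past a fold of 2 without KD replicate 3 (−1.04). Gstm7 was called lower on 17, 10 and 12 counts in the WT libraries against 2, 6 and 1 in the KD libraries. These few counts did not overlap, with a log2 fold change of −2.07 (SE 0.75, edgeR adjusted p = 0.0138). Gstm7 was called in only 7 of the 12 alternatives that held it, and it did not enter the fit with at least 10 counts in every library. Among the losses were those without WT replicate 1 (adjusted p = 0.0721), without KD replicate 1 (0.0581) and without KD replicate 3 (0.0752). With no low-count filter the call was lost too (0.0543), and without KD replicate 2 the log2 fold change was −3.03 (all edgeR's quasi-likelihood test). Gstm1 had 14.0 ± 1.76 and 16.1 ± 0.327 normalized CPM and did not pass the test (edgeR adjusted p = 0.0613), but did without WT replicate 1 (edgeR adjusted p = 0.0213). Mu class genes are close paralogs, and the summed counts of the 7 members, an alternative likewise chosen after the data were seen, gave a log2 fold change of −0.53.

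The pi class holds Gstp1, an enzyme long studied in drug-resistant tumours. Gstp1 stood at 94.7, 94.8 and 97.2 normalized CPM in the WT libraries and at 151, 135 and 126 in the KD libraries. The KD libraries spread more than the WT libraries but all lay above them, a log2 fold change of 0.52 (SE 0.05, edgeR adjusted p = 9.61e-12). Its paralog Gstp2 had 0.910 ± 0.240 and 0.687 ± 0.0698 normalized CPM with overlapping groups (edgeR adjusted p = 0.408). Among the omega class, Gsto1, which also reduces dehydroascorbate, stood at 76.5, 80.3 and 82.0 normalized CPM in the WT libraries and 91.3, 89.8 and 91.9 in the KD libraries. Gsto1 was 14.3% higher without overlap (log2 fold change 0.19, SE 0.05, edgeR adjusted p = 0.000306). Gsto2 rose from 2.10 ± 0.712 to 3.88 ± 0.403 normalized CPM, a log2 fold change of 0.88, and passed a fold of 2 without WT replicate 1 (1.19).

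Theta class members were lower or unresolved. Gstt3 stood at 14.3, 13.0 and 12.6 normalized CPM in the WT libraries and at 9.13, 8.58 and 10.1 in the KD libraries. No KD library reached the lowest WT library, and Gstt3 fell by 0.52 on the log2 scale (SE 0.11, edgeR adjusted p = 6.62e-05). Gstt1 fell from 2.18 ± 0.133 to 1.26 ± 0.170 normalized CPM (log2 fold change −0.79), but not past the adjusted p without WT replicate 3 (0.0583) or without KD replicate 2 (0.0537, edgeR's quasi-likelihood test in both). Gstt2 did not pass the test (log2 fold change −0.12, SE 0.27). Gstz1, which also acts in tyrosine breakdown, had 8.15, 7.84 and 7.33 normalized CPM in the WT libraries and 8.76, 10.2 and 8.58 in the KD libraries. These did not overlap, but the adjusted p was 0.0840 (edgeR's quasi-likelihood test; log2 fold change 0.24, SE 0.13). Gstk1, the kappa class enzyme of mitochondria and peroxisomes, had 18, 9 and 21 counts in the WT libraries and 19, 19 and 14 in the KD libraries. Its groups overlapped (log2 fold change 0.11, SE 0.53, edgeR adjusted p = 0.853).

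The microsomal transferases sit in membranes and are unrelated in sequence to the cytosolic classes. Mgst1, which also reduces lipid peroxides, stood at 60.9, 68.2 and 67.0 normalized CPM in the WT libraries and at 36.1, 36.6 and 39.4 in the KD libraries. The groups lay well apart, and Mgst1 fell by 0.81 on the log2 scale (SE 0.06, edgeR adjusted p = 1.61e-14). Mgst2, which can conjugate leukotriene A4, fell by 0.91, from 48.0 ± 4.36 to 25.5 ± 1.07 normalized CPM. Mgst3 had 6.57 ± 0.614 and 6.81 ± 0.616 normalized CPM with overlapping groups (edgeR adjusted p = 0.758).

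Summed over each family, the levels showed where rises and falls balanced. The 3 thioredoxin reductases together went from 497 ± 6.51 to 853 ± 12.4 normalized CPM, 1.72 times the WT mean. The glutathione peroxidases went from 1142 ± 11.2 to 753 ± 12.7, or 0.659 times, and the microsomal transferases from 120 ± 5.29 to 69.7 ± 0.992, or 0.581 times. Other families lay closer to their WT level, with the peroxiredoxins at 1.06 times and the non-microsomal glutathione S-transferases at 1.12 times. Over all 51 members the sum was 4765 ± 53.7 in the WT libraries and 4757 ± 49.0 in the KD libraries, a ratio of 0.998. These sums weigh long and abundant transcripts most.

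**Figure D4:**
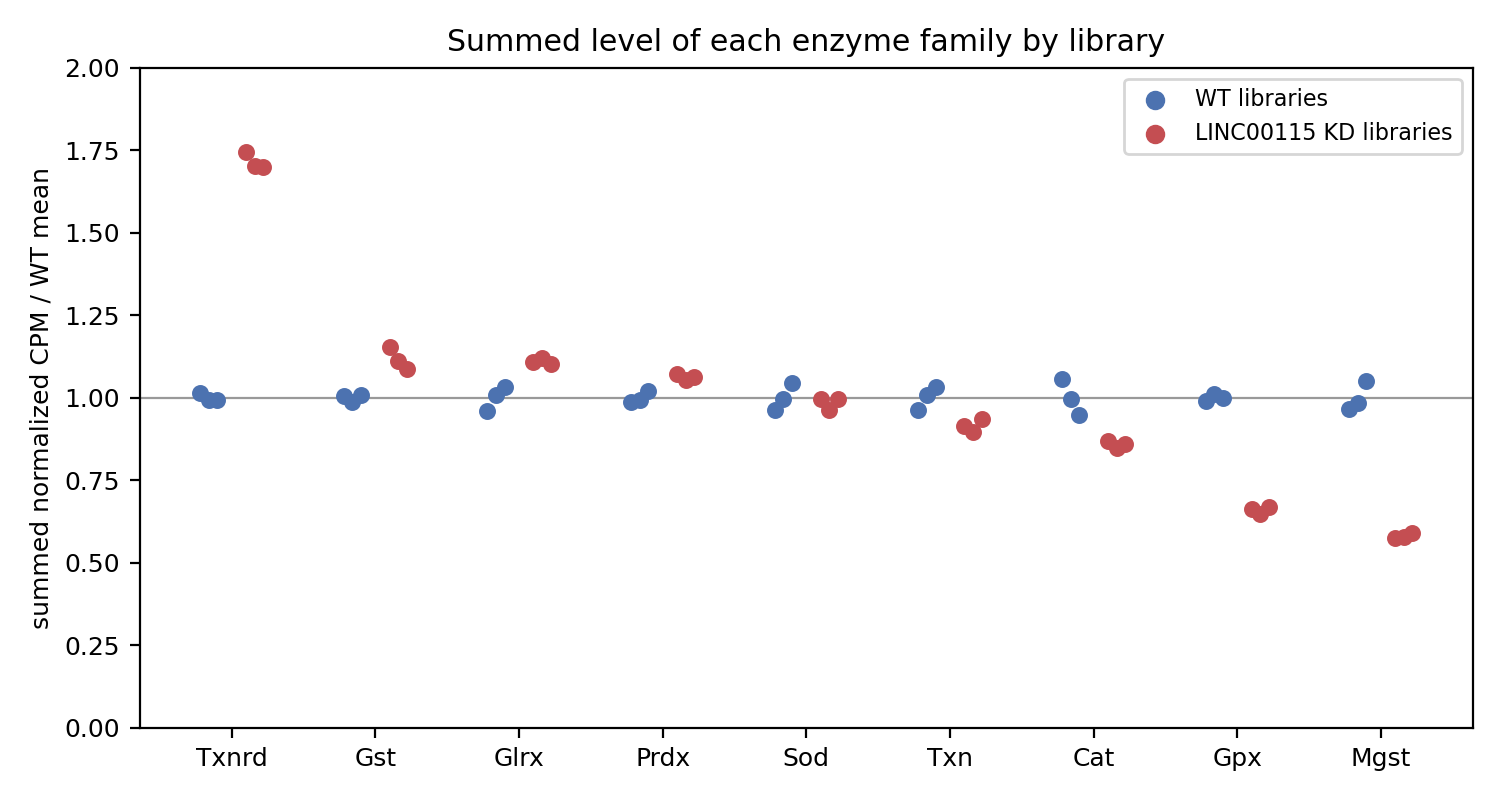
Summed normalized CPM of each enzyme family in each library, divided by the WT mean of that family (WT libraries in blue, KD libraries in red, 3 each, axis from 0). Thioredoxin reductases (Txnrd) stand at 1.72 times the WT mean in the KD libraries, while glutathione peroxidases (Gpx) and microsomal transferases (Mgst) stand at 0.659 and 0.581 times.

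Genes that feed these enzymes were followed in 4 related lists. Of all genes tested, 36.7% rose, 36.7% fell and 20.2% were called in either direction, against which the counts of each list are to be read. In the list of glutathione synthesis, recycling and breakdown, 28 of 29 genes were in the table and 22 were tested, of which 15 rose and 4 fell. At both thresholds 7 were called higher and 1 lower (36.4% of those tested), and the median log2 fold change was 0.58, beside −0.01 for all genes tested. Slc7a11, the cystine carrier of system xc-, stood at 138, 127 and 119 normalized CPM in the WT libraries and at 615, 626 and 634 in the KD libraries. All KD libraries were several times higher, 4.88-fold on average (log2 fold change 2.29, SE 0.04, edgeR adjusted p = 4.23e-32). Its partner chain Slc3a2 rose by a log2 fold change of 1.14.

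Gclm, the regulatory subunit of the enzyme that makes the first step of glutathione synthesis, had 87.1, 89.2 and 86.2 normalized CPM in the WT libraries and 252, 251 and 250 in the KD libraries. Replicates were nearly alike and the groups apart, at 2.86-fold (log2 fold change 1.52, SE 0.04, edgeR adjusted p = 1.04e-27). The catalytic subunit Gclc rose by 0.36 on the log2 scale, the next enzyme Gss by 0.70, and Gsr, which returns oxidized glutathione to its reduced form, by 0.99. Cth, which makes cysteine from cystathionine, rose by 1.64 and the glutamine carrier Slc1a5 by 1.12. The remaining called genes were Abcc4 (1.03), an exporter that can carry glutathione and whose call was lost with upper quartile scaling (0.98), and 2 genes of few counts, Ggt1 higher and Ggt7 lower. Ggt7 had 49 to 60 counts in the WT libraries and 14 to 17 in the KD libraries. Ggt1 had 1, 0 and 1 counts in the WT libraries and 24, 18 and 27 in the KD libraries. Ggt1 breaks down glutathione at the cell surface and is known to be abundant in kidney, whose markers moved as given above, a part that was not tested.

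Of 36 thioredoxin and peroxiredoxin partners tested, 8 rose (22.2%) and 18 fell, with 2 called higher and 4 lower (16.7% called) and a median log2 fold change of −0.17. Srxn1, the sulfiredoxin that repairs over-oxidized peroxiredoxins, had 195, 176 and 179 normalized CPM in the WT libraries and 528, 524 and 525 in the KD libraries. It was higher in every KD library (log2 fold change 1.52, SE 0.04, edgeR adjusted p = 3.04e-28). Rrm2, the ribonucleotide reductase subunit of dividing cells, was the other gene called higher (1.27). The called falls were in Ero1a, the oxidase that drives disulfide formation in the endoplasmic reticulum (log2 fold change −1.42), its partner P4hb (−1.28), and the methionine sulfoxide reductases Msrb1 (−1.36) and Msrb2 (−1.60, at most 90 counts). Without WT replicate 3, Msrb2 did not pass the test (log2 fold change −1.15, edgeR adjusted p = 0.0540). Txnip, the inhibitor of thioredoxin, fell by 0.33 on the log2 scale.

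In the list of selenoprotein synthesis and other selenoproteins, 24 genes were tested, 13 rose (54.2%) and 8 fell (33.3%). In that list Dio2, which activates thyroid hormone, and Lrp2, also one of the kidney markers, were called higher (log2 fold changes 3.42 and 3.04), 8.33% of those tested. Sephs2 and Secisbp2, needed to make and insert selenocysteine, rose by 0.85 and 0.83. The selenoproteins Selenof, Selenoh, Selenok, Selenom, Selenon, Selenot and Selenow fell, none past a fold of 2. Selenop, the secreted selenium carrier, rose by 0.86 on the log2 scale, and past a fold of 2 without WT replicate 3 (1.05). Selenos, Selenoi and Selenoo rose by 0.51, 0.33 and 0.32.

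NADPH is the electron source of both systems. Of 34 tested genes for NADPH supply and NRF2 control, 15 rose (44.1%) and 14 fell (41.2%), with 2 called higher and 3 lower (14.7% called) and a median log2 fold change of 0.04. Osgin1, an NRF2 target, was called higher (2.07), as was the small MAF partner of NRF2, Mafk (1.02). Mafk was not past a fold of 2 without WT replicate 2, without KD replicate 3 or with upper quartile scaling, and in the last 2 settings 1 gene was called higher. The number called higher was 4 without WT replicate 1, with Hmox1 and Aldh1l1 added. Called lower were Nqo2 (−1.84), the mitochondrial NAD kinase Nadk2 (−1.75) and malic enzyme Me2 (−1.06). NRF2 itself, Nfe2l2, went from 251 ± 5.76 to 189 ± 3.81 normalized CPM and its inhibitor Keap1 from 102 ± 4.93 to 166 ± 2.51, log2 fold changes of −0.41 and 0.70 (adjusted p = 2.39e-12 and 7.35e-17, edgeR's quasi-likelihood test). Among targets of NRF2, Hmox1 rose by a log2 fold change of 0.93, while Nqo1 did not pass the test (−0.03, SE 0.05). G6pdx, the entry enzyme of the pentose phosphate pathway, fell by 0.83 on the log2 scale.

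**Figure D5:**
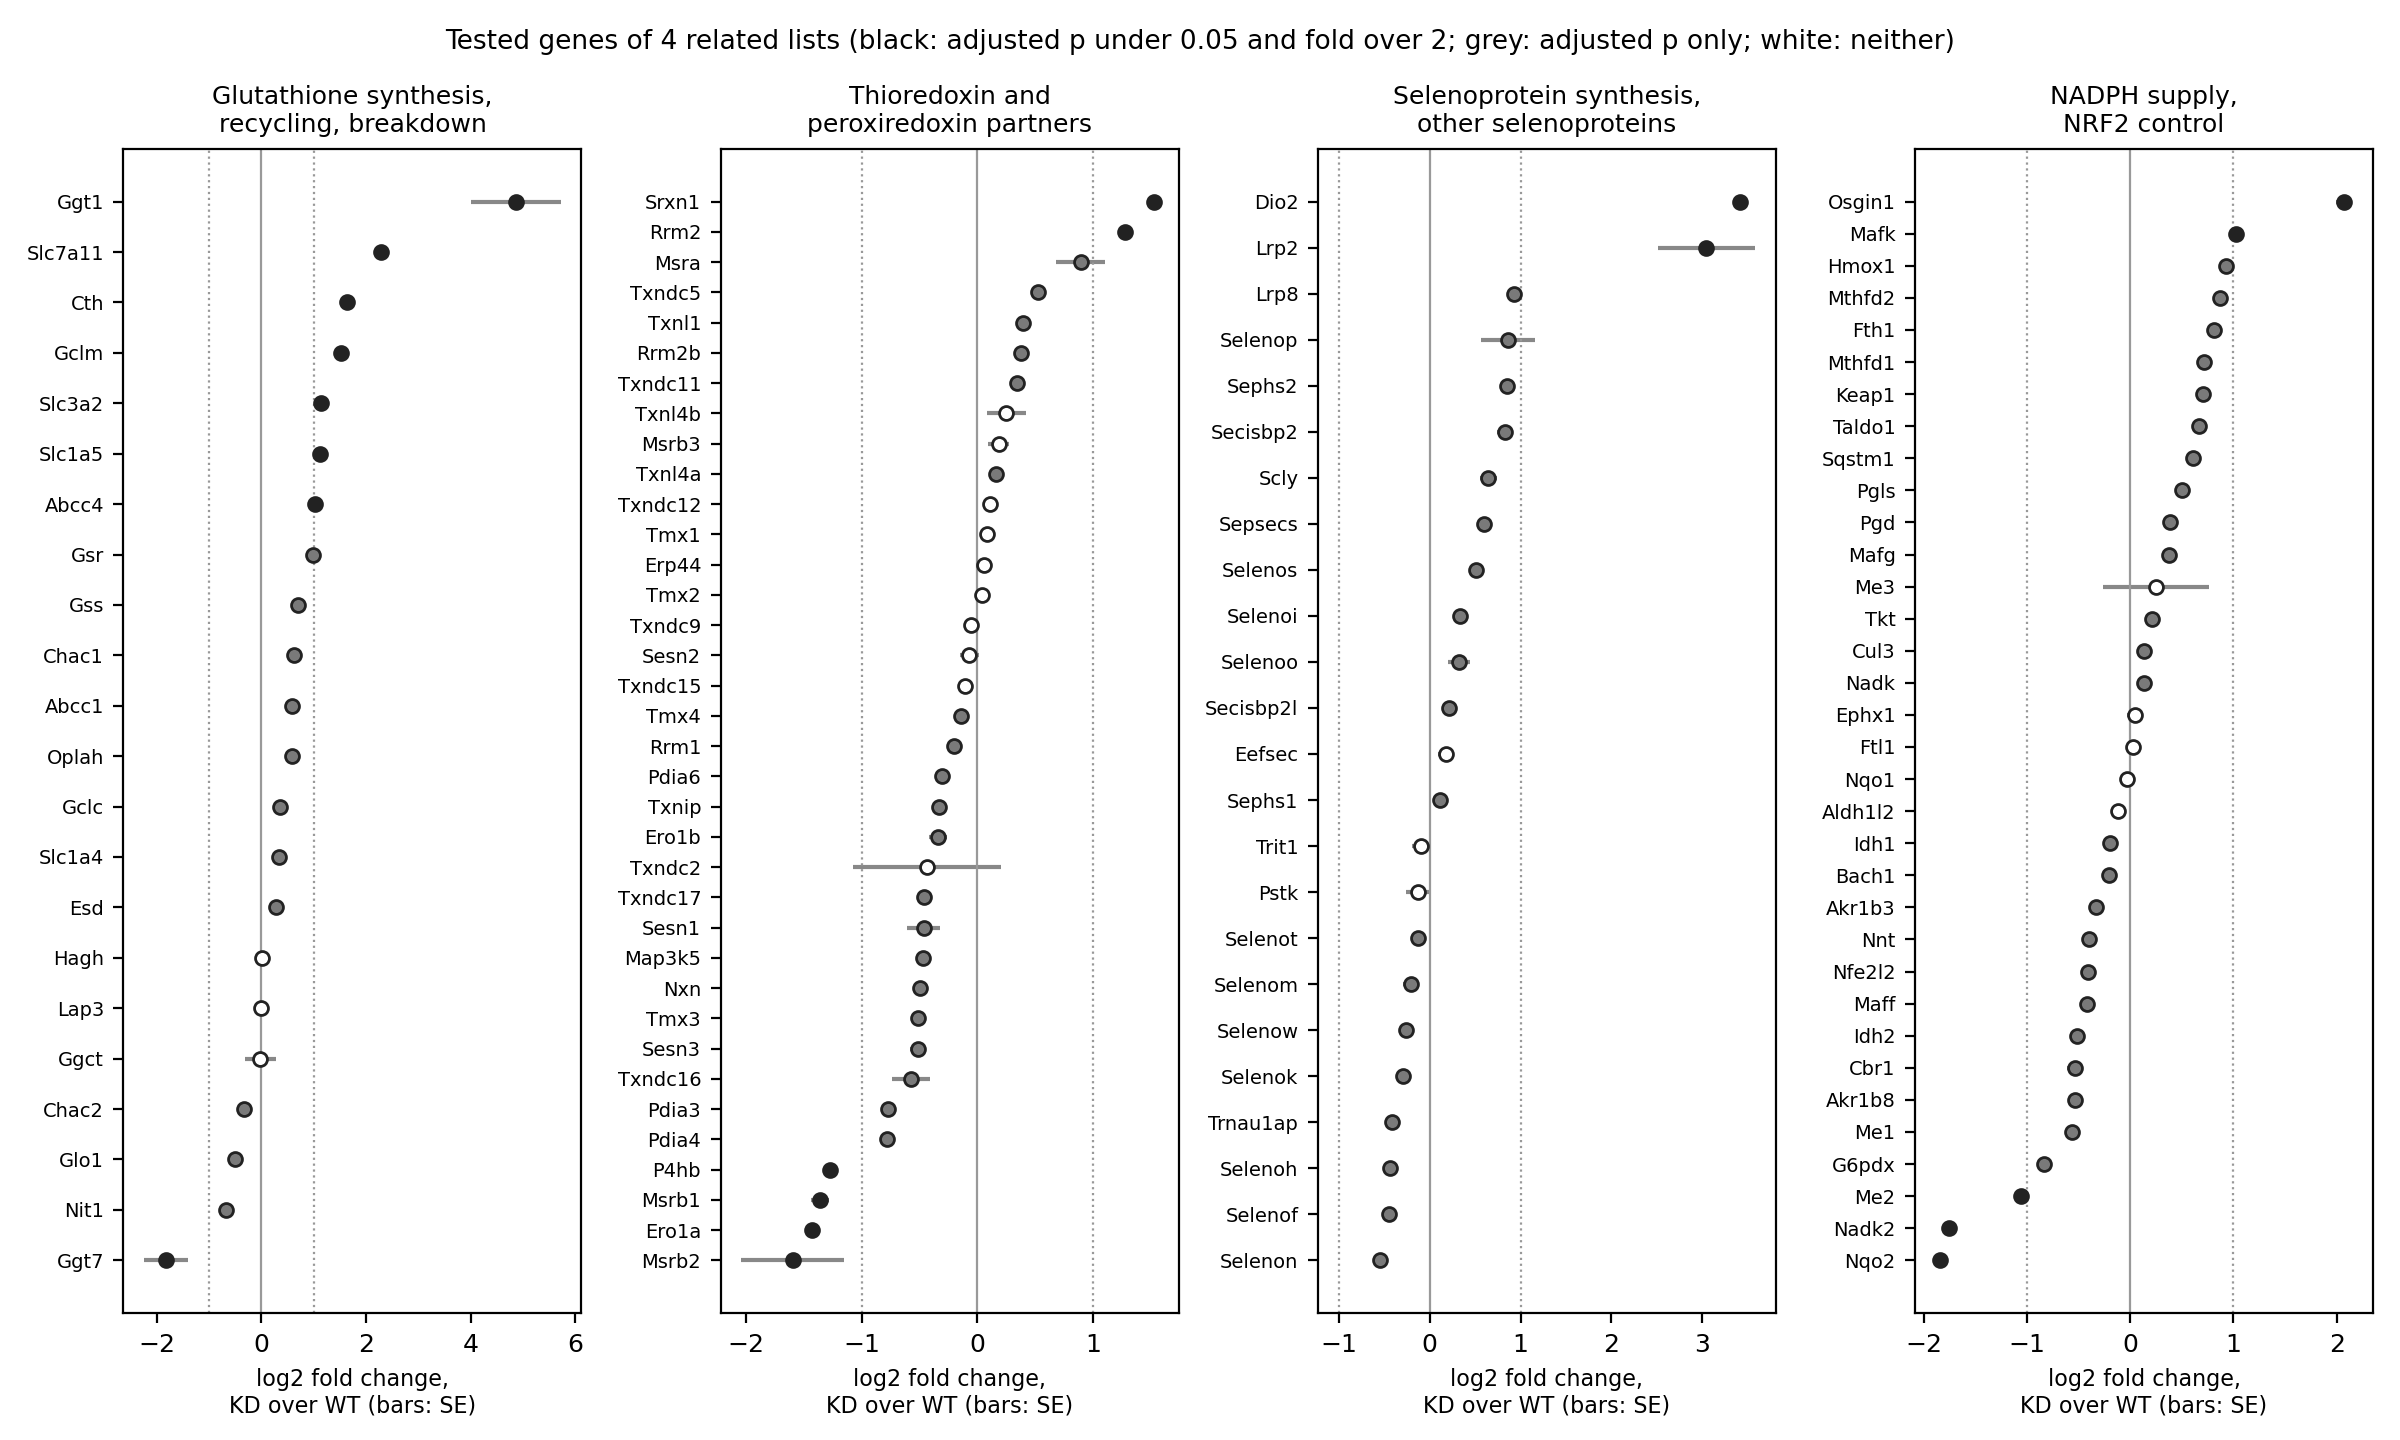
Log2 fold change, KD over WT, of every tested gene in the 4 related lists, sorted within each list, with standard errors from edgeR as bars (3 libraries per group). Black points passed the adjusted p and a fold of 2, and in the glutathione list 7 of them lie above 1 and 1 lies below −1.

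The 9 members that were not tested were Gsta3, with the counts given above, and 8 members with at most 9 counts in any library. These were Gpx2, Gpx6, Gpx7, Gstm3, Gstm4, Gstm6, Gstp3 and Gstt4. At these depths 3 counts, the limit that a count of 0 allows in a library, correspond to 0.0795 normalized CPM on average in the WT libraries. Such limits cover counting error only.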

How the data were processed

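RNA-seq of 6 libraries was analysed, 3 labelled LINC00115 KD and 3 labelled WT. According to the study's methods, the authors aligned trimmed reads with HISAT2 to hg19, and the deposited values are raw counts per gene symbol, without normalization. The submitters' processing notes name hg38, HISAT2, featureCounts and DESeq2, so the build is uncertain, and the annotation and strand setting are not given in the sources used here. Without known strand use, overlapping genes cannot be separated. Columns were matched to samples by their description. The annotation of GRCh37 in the reference was not used for coordinates.

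The test used edgeR 4.0.16 in R 4.3.3: filterByExpr (minimum count 10, minimum total 15), TMM scaling, quasi-likelihood test with group as the only term, and Benjamini-Hochberg adjustment over 13497 genes. The thresholds, an adjusted p under 0.05 and a fold over 2, are those of the study's methods. The SE is the size of the log2 fold change over the root of its F statistic. Levels are not compared between genes, since lengths were not used. Members were chosen by symbol, and members, lists and markers with earlier results of these data known. Named are all members, with values in every library for called members and the best-counted member of each subfamily, and of each list at most 5 called genes per direction with 100 or more counts in each library of the group where they were higher. Other members with values per library and other list genes were named with their values in view. The fit was tested on simulated counts. Replicate pairs had a chi-square per degree of freedom of 3.94 to 7.96, so none was 1 library deposited again.

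Alternatives were scaling by DESeq2's size factors, by the upper quartile or by library totals, no filter, at least 10 counts in every library, each replicate left out, a block for replicate number, the Wald test of DESeq2 1.42.0, a fold threshold of 1.5 and, added after the data were seen, summed subfamily counts.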

Additional observations from a re-analysis of the deposited data

How the results depend on the processing

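Members called higher numbered 4 to 7 over all alternatives except a fold threshold of 1.5 (8 members), and members called lower 1 or 2 except with that threshold (10 members). The number called lower was 1 with no low-count filter, with at least 10 counts in every library and with DESeq2's Wald test, and ranged from 1 to 2 with each replicate left out. With DESeq2's Wald test the median log2 fold change of the members was 0.19, here with the low-count members included. With edgeR and no low-count filter it was 0.18. The labels number replicates alike in both groups, but same-numbered libraries did not deviate together (correlations of −0.01 to 0.04 between their deviations from the group means), and with the replicate number as a block 2 members were called lower and 5 higher, 18 fell and 18 rose, and the median was 0.10. Of 543 values of single members under the alternatives set at the start, 528 kept direction and side of the adjusted p, 10 lost it, 1 gained it and 4 changed sign. The sign changes were Gstt2 without WT replicate 1 (log2 fold change 0.16), Mgst3 without WT replicate 1 (−0.013) and without KD replicate 2 (−0.003), and Gstk1 without WT replicate 2 (−0.17), none past the test. With each replicate left out, values ranged from −0.27 to 0.16 for Gstt2, −0.013 to 0.12 for Mgst3 and −0.17 to 0.36 for Gstk1. In the summed subfamilies Gstm1 was part of a fall (−0.53) and Gstp2 of a rise (0.52). The causes of these changes were not tested. Gstm7, Gstk1 and Gstp2 had at most 17, 21 and 44 counts in any library and the SE of their log2 fold changes was 0.75, 0.53 and 0.43.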
